A study of Mus musculus with 3 samples.

Results

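The 9 genes described here encode the contractile apparatus of smooth muscle: Acta2, Tagln, Myh11, Cnn1, Myl9, Actg2, Lmod1, Smtn and Mylk. They were taken by symbol from the gene tables of 3 spatial transcriptomics libraries, and all 9 were found once among 32285 listed genes. The libraries were 3 heart sections of C57BL/6 mice, 1 per condition, measured on Visium slides, whose spots each capture polyadenylated RNA from a small region holding several cells. In the sham section the mouse had received vehicle by gavage for 7 days before an operation in which the needle was passed and no vessel was tied. In the I/R section the left anterior descending coronary artery was ligated for 30 min after the same vehicle gavage, and the heart was reperfused for 24 h. In the SBP section the mouse had received Shexiang Baoxin Pill (MUSKARDIA), a Chinese patent medicine for coronary disease, for 7 days before the same ligation and reperfusion. The mice were 8 weeks old by the study's methods. With 1 section per condition no test between conditions was possible, the intervals below are 95% intervals that cover counting error only, and differences between animals or between cutting planes cannot be told apart from differences between conditions.

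Smooth muscle shortens when calcium-bound calmodulin activates myosin light chain kinase, which phosphorylates the regulatory light chain of smooth muscle myosin and lets it pull on actin filaments. In the heart this apparatus is found in the walls of coronary arteries and veins, and activated fibroblasts, endothelial cells and pericytes can carry single components of it, above all smooth muscle alpha-actin. Several of these genes are switched on by serum response factor with its cofactor myocardin through a short DNA element called the CArG box, a pair of C bases, 6 bases of A or T, and a pair of G bases.

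The promoters of Acta2 and Myl9 are shown because these were the only members that were lower in I/R than in sham and lower again in SBP, each time beyond the counting interval. The sequences are the 250 bases before the RefSeq start site on GRCm38.p6, written 5′ to 3′ on the strand of the gene, and the capitals mark CArG boxes with at most 1 base of the core that is not A or T.
Acta2, chr19:34255374-34255623, minus strand: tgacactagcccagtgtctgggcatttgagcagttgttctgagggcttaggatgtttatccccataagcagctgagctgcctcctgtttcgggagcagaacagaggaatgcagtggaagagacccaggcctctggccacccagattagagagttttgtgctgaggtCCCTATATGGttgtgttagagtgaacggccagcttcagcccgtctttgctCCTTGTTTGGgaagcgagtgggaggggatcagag
Myl9, chr2:156775214-156775463, plus strand: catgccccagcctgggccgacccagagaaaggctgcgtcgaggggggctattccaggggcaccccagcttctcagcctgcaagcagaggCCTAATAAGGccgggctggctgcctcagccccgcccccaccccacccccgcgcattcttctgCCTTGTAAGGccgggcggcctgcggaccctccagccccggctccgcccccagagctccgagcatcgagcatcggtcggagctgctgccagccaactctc
Windows were available for 6 of the 9 genes, namely Acta2, Cnn1, Myl9, Lmod1, Smtn and Mylk, and not for Tagln, Myh11 and Actg2. Each gene had a single window. Those of Mylk and Smtn lay wholly inside the annotated gene, so any start site further upstream was not read. A CArG box with a full A and T core stood in the Myl9 window alone, with its first base 161 bases before the start site. Such a box was present in 482 of all 32851 windows (1.47%). With 1 base of the core free, a rule chosen after the strict search, the Acta2 window held boxes at 84 and 34 bases before the start site and Myl9 gained another at 99 bases. By that rule 2 of the 6 windows held a box, against 2823 of all windows (8.59%). The box reads the same on both strands, so each match counts once, and the letters are a description of these windows only.

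The sham section yielded 25118258 UMIs (unique molecular identifiers, each a counted RNA molecule) over 2234 spots, I/R gave 30238530 over 2082 spots and SBP gave 21631280 over 1960 spots. Median depth per spot was 10645, 14672 and 10652.5 UMIs. Between 44.3% and 48.6% of the UMIs came from the mitochondrial genome. The slides use a common set of spot barcodes, of which 1093 occurred in all 3 sections, so a shared barcode does not mark a shared spot. Levels are given as UMIs of the gene per 1000000 UMIs of the section (CPM). Since the assay reads the 3′ end of each transcript once per molecule, transcript length does not enter a level.

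Acta2 encodes smooth muscle alpha-actin (ENSMUSG00000035783, chr19:34241090-34255590) and was the most abundant member. It measured 254 CPM (248 to 260) in the sham section, 168 CPM (163 to 172) after I/R and 83.0 CPM (79.2 to 86.9) under SBP. The 3 intervals did not overlap, and each section lay below the one before it. The 9 genes together summed to 483, 380 and 251 CPM in sham, I/R and SBP, and Acta2 made up 52.6%, 44.1% and 33.1% of these sums. Fewer cells of a type in a section and less RNA per cell cannot be told apart in such values.

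Myl9, the regulatory light chain of smooth muscle myosin (ENSMUSG00000067818, chr2:156775420-156781658), took the same order of sections. Its level was 52.3 CPM (49.5 to 55.2) in the sham section, 43.3 CPM (41.0 to 45.7) after I/R and 29.0 CPM (26.8 to 31.4) under SBP. Again no intervals overlapped. Myh11, the heavy chain of the same motor (ENSMUSG00000018830, chr16:14194535-14291372), gave 23.5, 21.2 and 13.9 CPM in sham, I/R and SBP, and only the SBP section lay apart. Actg2, the gamma-actin of visceral smooth muscle (ENSMUSG00000059430, chr6:83512905-83536265), was counted 95, 110 and 19 times in sham, I/R and SBP, which is 3.78, 3.64 and 0.878 CPM. Sham and I/R did not differ beyond counting error for Actg2 (log2 ratio -0.06, from -0.47 to 0.36), whereas SBP lay below both.

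The remaining members did not follow the Acta2 order. Tagln, the actin-binding protein transgelin (ENSMUSG00000032085, chr9:45929619-45936058), measured 34.7, 38.5 and 22.2 CPM in sham, I/R and SBP, so I/R was the highest section. Cnn1, calponin, an actin-binding inhibitor of the myosin ATPase (ENSMUSG00000001349, chr9:22099216-22109630), stood out in I/R with 10.0 CPM (8.92 to 11.2), against 5.26 CPM in sham (4.40 to 6.23) and 4.85 CPM in SBP (3.97 to 5.88). Sham and SBP overlapped for Cnn1, and I/R lay above both. Lmod1, leiomodin, a nucleator of actin filaments (ENSMUSG00000048096, chr1:135324807-135368065), was sparse at 3.30, 3.54 and 2.36 CPM in sham, I/R and SBP from 83, 107 and 51 UMIs, and the intervals of these levels overlapped. Mylk, the myosin light chain kinase (ENSMUSG00000022836, chr16:34745210-35002420), measured 17.8, 18.2 and 14.1 CPM in sham, I/R and SBP. Its long and short kinases and the small protein telokin end at the same 3′ end and were counted as a single gene. Smtn, the cytoskeletal protein smoothelin (ENSMUSG00000020439, chr11:3517523-3540612), alone had its lowest level in I/R, with 88.3, 73.9 and 80.6 CPM in sham, I/R and SBP.

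**Figure D1:**
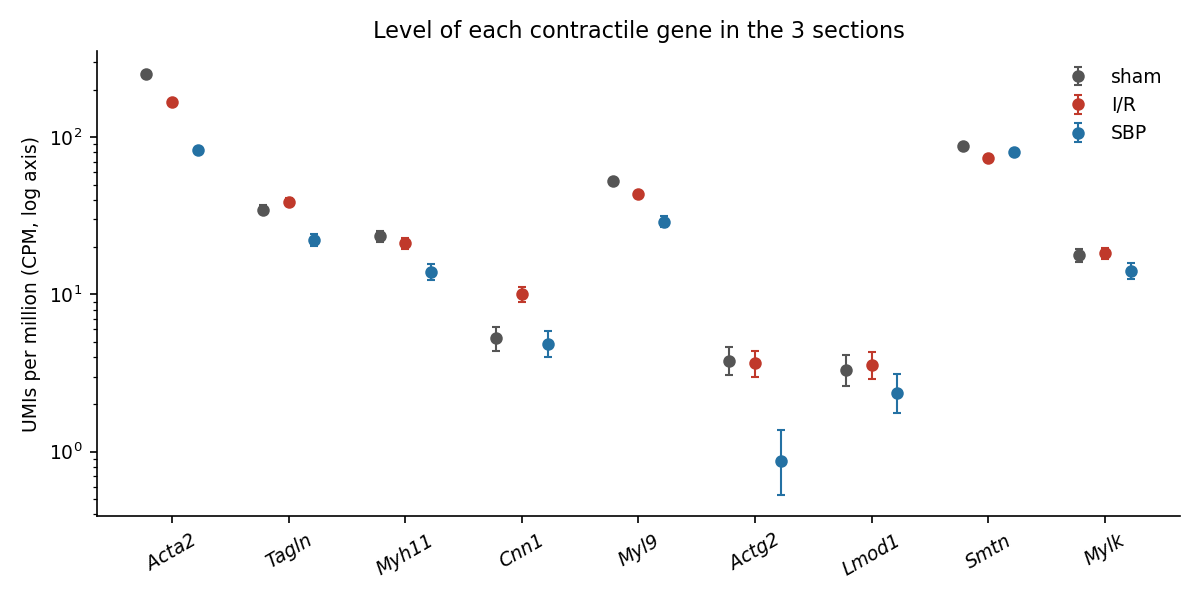
Level of each contractile gene (CPM, log axis) in the sham, I/R and SBP sections, with 95% counting intervals. Acta2 steps down from 254 to 168 to 83.0 CPM, Cnn1 peaks in I/R at 10.0 CPM, and Smtn is nearly level between 73.9 and 88.3 CPM.

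Thus 3 of the 8 other members (Myh11, Myl9 and Actg2) shared the order sham above I/R above SBP with Acta2. Among 12659 genes with at least 50 UMIs over the 3 sections, 8.31% had this order, and 0.458% had it with both steps beyond the counting interval. Myl9 was among the latter, as was Acta2, which set the order. The order depended on how the sections were scaled. Leaving mitochondrial UMIs out of the total added Lmod1 and Mylk, which made 6 of 9 members with Acta2 itself counted. TMM or median-of-ratios factors added Tagln as well, which made 7 of 9 on the same count. Acta2 has its own order by definition, so only the other 8 members can be set against a share of all genes. Cnn1 and Smtn stayed outside under each of these scalings. The share of all genes in this order was then 11.2%, 10.4% and 10.6%.

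Between I/R and sham, the comparison of injured with uninjured heart, Acta2 was 1.51-fold lower (log2 ratio -0.60, from -0.65 to -0.55) and was the only member at least 1.5-fold lower. Of all 12231 genes tested, 3.49% were that much lower, and the median gene was higher in I/R by a log2 ratio of 0.24, so every member except Cnn1 lay below the median of all genes. Cnn1 was 1.91-fold higher (0.93, from 0.63 to 1.24), above 90.1% of the genes tested, of which 23.2% were at least 1.5-fold higher. Myl9 was lower by a log2 ratio of -0.27 (-0.38 to -0.16) and Smtn by -0.26 (-0.34 to -0.17). The 1.5-fold line lay close to Acta2. Giving every spot equal weight brought its log2 ratio to -0.50, short of the line, while without the 1% of spots richest in the other 8 genes it was -0.96.

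Between SBP and I/R, the comparison of the treated with the untreated injured heart, 8 of the 9 members were lower in SBP. Most genes were lower as well: a log2 ratio of -0.04 already lay above 64.8% of the 12151 genes tested, and the median was -0.17. At least 1.5-fold lower were 6 members, against 13.8% of those genes. The 6 were Actg2 (4.14-fold lower), Cnn1 (2.06-fold), Acta2 (2.02-fold), Tagln (1.74-fold), Myh11 (1.53-fold) and Lmod1 (log2 ratio -0.59, from -1.10 to -0.09). Myl9 at 1.49-fold lower stood just outside, Mylk was 1.29-fold lower, and Smtn alone was higher, by a log2 ratio of 0.12 (0.03 to 0.22). TMM factors, median-of-ratios factors and a total without mitochondrial UMIs each kept Acta2, Tagln, Cnn1 and Actg2 at 1.5-fold or more and put Myh11 and Lmod1 under it. The median of all genes was then -0.01, -0.005 and -0.11. The share of all genes at least 1.5-fold lower was not computed under these scalings, so the 13.8% does not apply to them. Between SBP and sham, 5 members were at least 1.5-fold lower (Actg2 4.31-fold, Acta2 3.06-fold, Myl9 1.80-fold, Myh11 1.69-fold and Tagln 1.56-fold), against 2.77% of 11768 genes and a median log2 ratio of 0.08. Cnn1 did not differ beyond counting error between these sections (-0.11, from -0.50 to 0.27). The comparisons share sections and are therefore not independent.

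**Figure D2:**
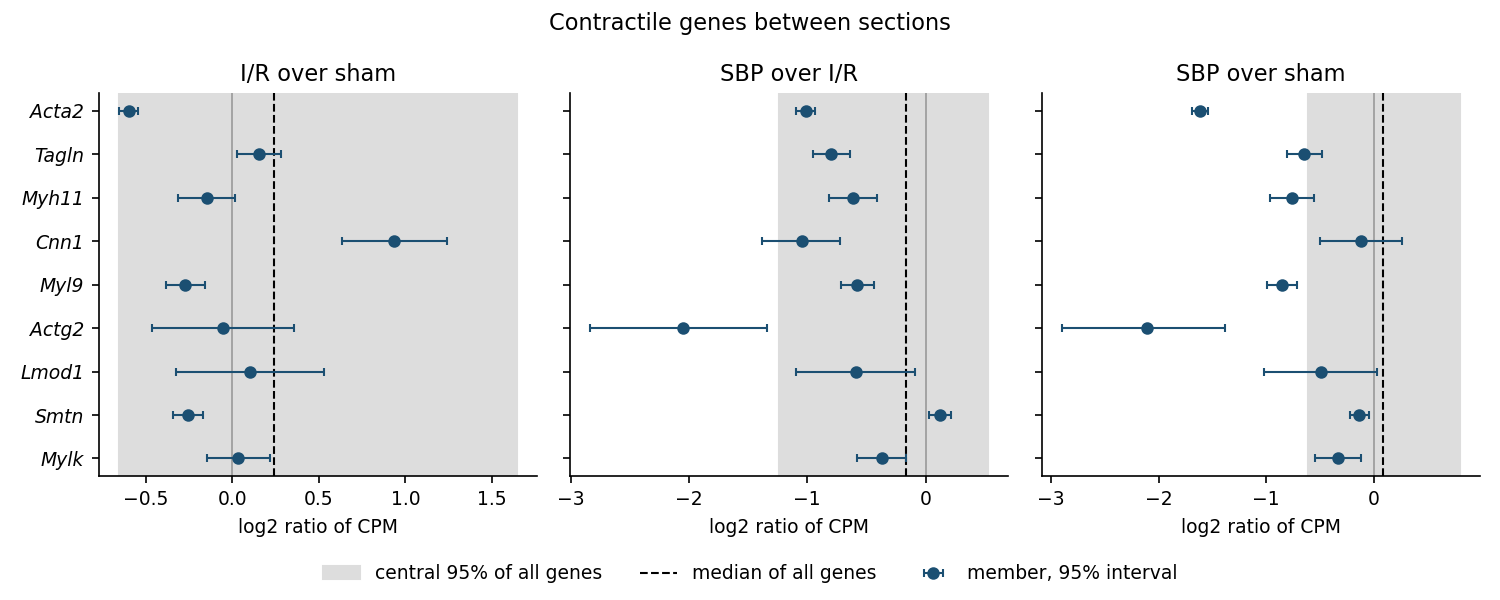
Log2 ratio of CPM for each member in I/R over sham, SBP over I/R and SBP over sham, with 95% counting intervals, the median of all genes (dashed) and the central 95% of all genes (grey). Acta2 and Actg2 lie farthest below the grey band in SBP over sham at -1.61 and -2.11, and Cnn1 is the member farthest to the right in I/R over sham at 0.93.

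Most of the contractile genes had a large part of their UMIs in few spots. In sham, Acta2 and Smtn, with 52.6% and 18.3% of the UMIs of all members, were the least concentrated. The top 1% of spots by UMIs of the gene, which were 22, 21 and 20 spots in sham, I/R and SBP, held a median over the members of 41.4%, 40.6% and 43.7% of that gene's UMIs in the respective section. Tagln held 41.4%, 42.3% and 47.1%, Myh11 42.2%, 40.6% and 43.7%, and Myl9 32.5%, 33.6% and 36.0% in sham, I/R and SBP. These 3 genes were about equally concentrated in every section although their levels differed. Among 2839 genes with between 0.5 and 2 times as many UMIs in sham, Tagln ranked 4th by this share, and the median of those genes was 9.53%. The share of such genes was larger for sparse members. For Lmod1 their medians were 29.7%, 25.5% and 34.1% in sham, I/R and SBP, against 55.4%, 54.2% and 68.6% for Lmod1 itself.

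Smtn and Acta2 departed from this pattern in different ways. The top spots held only 5.45%, 6.85% and 5.45% of the Smtn UMIs, close to the 6.49%, 6.43% and 6.86% that were typical of genes with like UMIs, and a Smtn UMI was found in 58.0%, 58.7% and 55.9% of spots, or 42.0%, 36.4% and 40.1% once spots were thinned to 6500 UMIs. Smtn RNA was thus spread over the tissue like an average gene of its level. For Acta2 the sham section had a share of 14.7% (13.9% to 15.6%), whereas I/R had 34.6% (33.3% to 35.9%) and SBP 33.3% (31.1% to 35.5%). An Acta2 UMI was found in 80.1%, 60.5% and 36.3% of the spots of sham, I/R and SBP, and after thinning to 6500 UMIs per spot, which left out 132, 202 and 213 shallower spots, in 67.4%, 39.0% and 24.7%. Drawing every section down to the same 1795 Acta2 UMIs left the share at 16.7% in sham and 36.0% in I/R. Cnn1 was least concentrated in I/R, where its level was highest, at 45.5% (39.8% to 51.3%) against 56.8% in sham (47.9% to 65.4%) and 65.7% in SBP (55.8% to 74.7%). In SBP all 19 Actg2 UMIs lay in the top 20 spots, which was fixed in advance because 19 UMIs cannot fill more than 19 spots. That value of 100% is nevertheless part of the SBP median of 43.7% over the members.

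**Figure D3:**
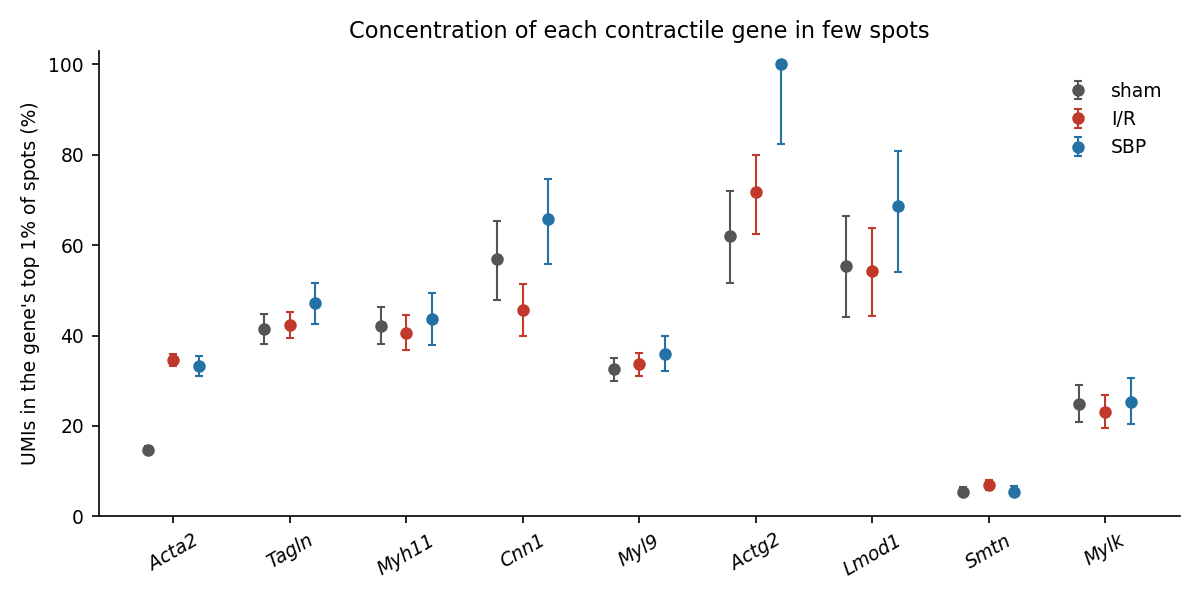
Percentage of each gene's UMIs held by its own top 1% of spots in each section, with exact binomial 95% intervals. The intervals do not allow for the choice of spots by the same UMIs, and the 100% of Actg2 in SBP is fixed by its 19 UMIs. Acta2 rises from 14.7% in sham to 34.6% in I/R and 33.3% in SBP, while Smtn stays between 5.45% and 6.85% and Tagln between 41.4% and 47.1%.

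To find the spots in which Acta2 differed, spots were ranked for each gene by the share of their UMIs that the other 8 members took, so that a gene never chose its own spots. In the richest 1%, Acta2 measured 3056 CPM (2861 to 3262) in the sham section, 5004 CPM (4766 to 5249) in I/R and 2491 CPM (2285 to 2712) in SBP. In the remaining spots it measured 220, 114 and 58.8 CPM in sham, I/R and SBP. The sham and I/R sections therefore swapped places between the spot groups, with I/R over sham at a log2 ratio of 0.71 (0.59 to 0.83) in rich spots and -0.96 (-1.02 to -0.89) elsewhere. All genes had a median of 0.33 in those rich spots and 0.24 elsewhere, and Acta2 lay above 67.9% of genes in the former and above 0.665% in the latter. SBP over I/R was similar in both spot groups, at -1.01 (-1.15 to -0.86) in rich spots and -0.95 (-1.04 to -0.86) elsewhere. All genes had medians of -0.23 and -0.16 for this comparison.

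No such swap beyond counting error was seen for Tagln, Myh11, Cnn1, Myl9, Lmod1 or Mylk. Tagln gave log2 ratios I/R over sham of 0.31 (0.10 to 0.51) in rich spots and 0.12 (-0.04 to 0.29) elsewhere, and Myl9 gave -0.15 (-0.36 to 0.05) and -0.28 (-0.41 to -0.14). Cnn1 was higher in I/R in both, by 0.88 (0.41 to 1.35) and 1.05 (0.65 to 1.46). Smtn gave 0.59 (0.10 to 1.10) in rich spots and -0.28 (-0.37 to -0.20) elsewhere, and the few UMIs of Actg2 gave 0.59 (0.01 to 1.19) and -0.66 (-1.27 to -0.05), so that these 2 genes changed sign as Acta2 did. Rich spots exceeded the others by log2 ratios of 5.24 to 7.76 for Tagln, Myh11, Cnn1, Myl9, Actg2 and Lmod1 over the 3 sections, of 4.23 to 4.52 for Mylk and of 1.12 to 1.99 for Smtn. For Acta2 this difference was 3.79 in sham against 5.46 in I/R and 5.41 in SBP.

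**Figure D4:**
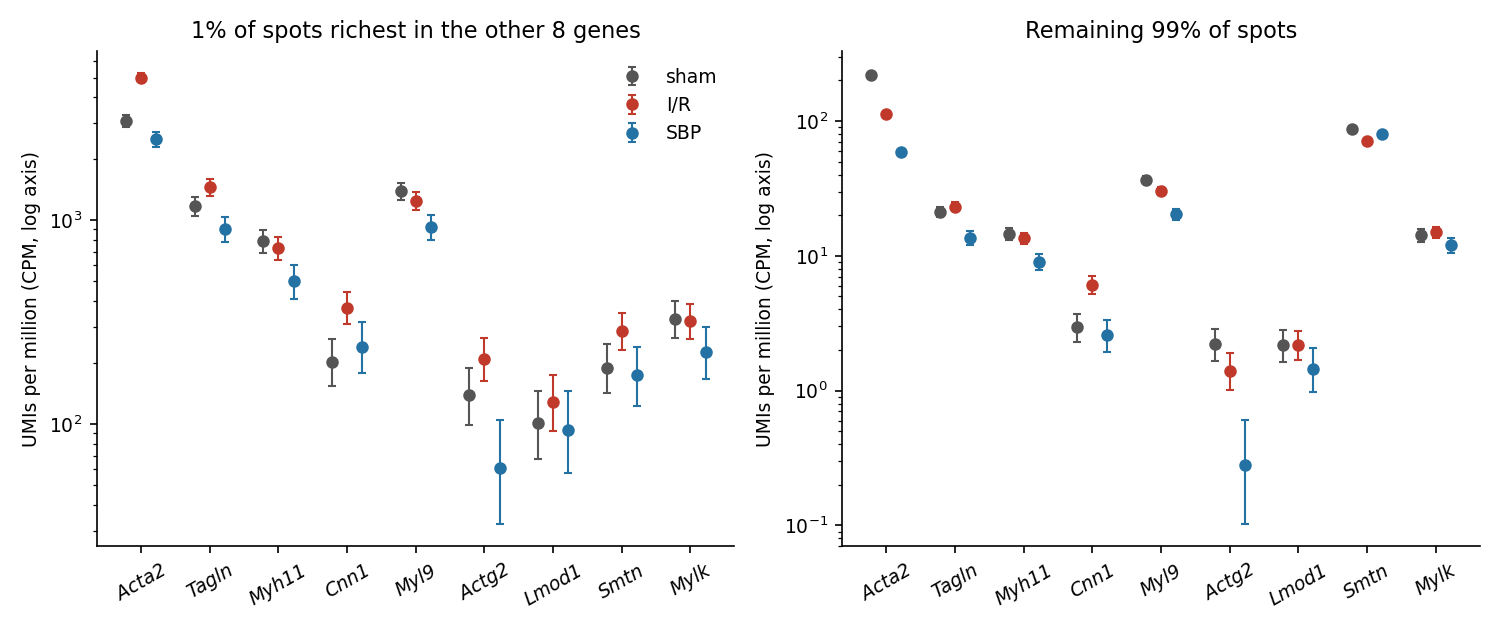
Level of each gene (CPM, log axes) in the 1% of spots richest in the other 8 genes (left) and in the remaining spots (right), by section, with 95% counting intervals. On the left I/R is the highest section for Acta2 at 5004 CPM, and on the right sham is, at 220 CPM.

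The level of Acta2 relative to its partners also differed between the spot groups. Each gene's level came from its own ranking of spots, so the spots behind both levels of a ratio were not exactly the same. In sham there were 2.61 CPM of Acta2 per CPM of Tagln in rich spots and 10.4 in the other spots. In I/R these values were 3.46 and 4.90, and in SBP 2.76 and 4.31. Acta2 per Myh11 was 3.89 in rich and 15.1 in other spots of sham, 6.89 and 8.41 in those of I/R, and 4.98 and 6.52 in those of SBP. Acta2 per Myl9 was 2.21 in rich and 6.01 in other spots of sham, but it was slightly higher in the rich spots of I/R, at 4.02 against 3.76, and nearly level in SBP, at 2.70 and 2.90. In sham, Acta2 thus stood higher relative to Tagln, Myh11 and Myl9 outside the rich spots than inside, with each gene read in its own spot sets.

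A stricter cut, added after these values were seen, kept only spots without a single UMI of Tagln, Myh11, Cnn1, Myl9, Actg2 and Lmod1. These were 1352 of 2234 spots in sham, 1106 of 2082 in I/R and 1405 of 1960 in SBP. Acta2 in them measured 180 CPM (173 to 187) in the sham section, 63.9 CPM (59.9 to 68.0) in I/R and 38.9 CPM (35.9 to 42.2) in SBP, and 76.4%, 49.6% and 31.2% of these spots had an Acta2 UMI. Acta2 gave a log2 ratio of -1.49 between I/R and sham, of -0.71 between SBP and I/R and of -2.21 between SBP and sham, where the medians of all genes were 0.17, -0.08 and 0.09. For SBP over sham in these spots none of the 10915 genes tested lay lower than Acta2. Smtn in the same spots was 88.2, 74.6 and 81.3 CPM and Mylk 10.95, 9.14 and 9.11 CPM in sham, I/R and SBP, so neither came near the Acta2 difference. Because a deeper spot is less likely to have no UMI of a gene, the cut was repeated on counts thinned to 6500 UMIs per spot. In the spots so chosen, Acta2 measured 190, 70.1 and 39.6 CPM by unthinned counts in sham, I/R and SBP. The difference was not limited to the spots of the first, unthinned cut, which held 40.7%, 19.4% and 33.1% of the Acta2 UMIs of sham, I/R and SBP. In the remaining spots Acta2 measured 353, 275 and 189 CPM, in the same order of sections.

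Marker lists of cells that can hold Acta2 and of other cell types were read beside these values. The 11 pericyte genes, such as Rgs5 and Abcc9, summed to 516, 403 and 484 CPM in sham, I/R and SBP. In log2 ratio between I/R and sham 7 of the 11 were below 0, and the median of the list was -0.06, where all genes had 0.24. Of all genes tested, 28.2% lay below -0.008 and 30.2% below 0.02, so the share below 0 was between these. Other pericyte genes were higher in I/R than in sham, such as Pdgfrb (39.3 against 29.8 CPM) and Cspg4 (16.2 against 12.3 CPM). Of the 11 genes 3 (Rgs5, Vtn and Colec11) were at least 1.5-fold lower in I/R than in sham, against 3.49% of all genes. None was that much lower in SBP than in I/R or in SBP than in sham, against 13.8% and 2.77% of all genes. Rgs5, a regulator of G-protein signalling and a leading pericyte marker, measured 233, 153 and 197 CPM in the 3 sections. The 9 genes of activated fibroblasts summed to 578, 987 and 467 CPM in sham, I/R and SBP, and 6 were at least 1.5-fold higher in I/R than in sham and 7 at least 1.5-fold lower in SBP than in I/R, against 23.2% and 13.8% of all genes. Among them the matrix protein tenascin C (Tnc) measured 6.41, 51.6 and 15.6 CPM. The 9 genes of arterial endothelium summed to 56.7, 67.6 and 66.0 CPM. Of the 6 atrial genes Nppa, which ventricular muscle also makes under load, measured 458, 1146 and 1380 CPM. Bmp10 was at 0 in all sections, Sln at 0 in I/R and SBP and Myl7 at 3 or 4 UMIs in each. Myl4 was counted 75, 79 and 78 times and Dkk3 23, 28 and 28 times in sham, I/R and SBP. The 5 mesothelial genes summed to between 1.85 and 2.35 CPM. Of these, Wt1 gave 59, 49 and 31 UMIs, while Upk3b, Upk1b and Msln were at 0 in sham and at 4, 6 and 8 UMIs in SBP. Red blood cell genes summed to 2878, 4094 and 3848 CPM. Neither the summed pericyte list nor the summed fibroblast list had the Acta2 order. It was found in 1 of the 11 pericyte and 2 of the 9 fibroblast genes, against 8.31% of all genes, so the pericyte count lay near that share. The part of these cells in the Acta2 values was not tested.

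A pair of regions of the injured hearts was examined for the members. Each was set on counts thinned to 6500 UMIs per spot, by a cut that at most 5% of sham spots reached. The levels of the members in these spots came from the unthinned counts. Injury-gene-high spots had at least 6 UMIs of 9 genes of infiltrating and wound cells (among them Spp1, Timp1, S100a8 and Ccl2) and numbered 88 of 2102 in sham, 579 of 1880 in I/R and 256 of 1747 in SBP. Ankrd1-high spots had at least 19 UMIs of the stretch-induced cardiomyocyte gene Ankrd1 and numbered 95, 408 and 262.

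In I/R the contractile genes were higher inside injury-gene-high spots than outside. Actg2 measured 9.27 CPM inside and 0.976 CPM outside (log2 ratio 3.25, from 2.53 to 4.03), Cnn1 24.5 and 3.22 CPM (2.93, from 2.52 to 3.35), Tagln 82.2 and 18.6 CPM (2.14, from 1.96 to 2.32) and Acta2 346 and 86.7 CPM (1.99, from 1.91 to 2.08). Lmod1, Myl9, Mylk and Myh11 followed with log2 ratios from 1.58 for Lmod1 down to 1.42 for Myh11, and Smtn went the other way at -0.20 (-0.33 to -0.06). Thus 8 of 9 members were at least 1.5-fold higher there, where 62.2% of 11327 genes were and the median gene had a log2 ratio of 0.81, against 1.58 for the median member.

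In SBP the same 8 members were at least 1.5-fold higher in injury-gene-high spots, against 38.8% of 10327 genes and a median gene at 0.43. Actg2 had a log2 ratio of 3.00 from 9 and 6 UMIs, Cnn1 of 2.32 (1.72 to 2.93), Tagln of 1.97 (1.69 to 2.25) and Acta2 of 1.56 (1.41 to 1.70). In the few such spots of sham, Lmod1 alone passed 1.5-fold, from 7 UMIs, against 49.4% of 10597 genes, and Acta2 measured 278 CPM inside and 255 CPM outside (0.13, from -0.04 to 0.29). Tagln was higher in these sham spots as well, at 48.5 CPM inside and 34.3 CPM outside (0.50, from 0.08 to 0.89), and the intervals of the other 8 members included 0. Only 88 spots stood behind the sham values.

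This division also split the Acta2 difference between sections. Inside injury-gene-high spots I/R was above sham by a log2 ratio of 0.32 (0.15 to 0.49), and outside them it was below by -1.55 (-1.63 to -1.48), where all genes had medians of 0.09 and -0.04. SBP over I/R was -0.95 (-1.08 to -0.82) inside and -0.51 (-0.62 to -0.40) outside. All genes had medians of -0.28 inside and 0.06 outside for this comparison, and Acta2 lay above 6.61% and 3.11% of genes. For Tagln the corresponding log2 ratio between I/R and sham reached 0.76 (0.37 to 1.18) inside and -0.88 (-1.06 to -0.70) outside, and for Cnn1 it was 1.82 (0.82 to 3.05) and -0.70 (-1.16 to -0.26). Over whole sections Tagln was slightly higher in I/R than in sham (log2 ratio 0.15, from 0.02 to 0.28). That value combined a higher level in injury-gene-high spots, a lower level in the rest and a region of different size. Among the spots deep enough to thin, injury-gene-high spots held 30.2% of the unthinned UMIs in I/R and 4.73% in sham.

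Ankrd1-high spots showed no such gathering. No member was at least 1.5-fold higher in them, against 28.6%, 17.0% and 16.6% of genes in sham, I/R and SBP. Acta2 in I/R had a log2 ratio of 0.22 (0.13 to 0.31), below the median gene at 0.27, and Cnn1 reached 0.46 (0.08 to 0.83). Smtn was lower in Ankrd1-high spots of I/R by -0.57 (-0.73 to -0.41).

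**Figure D5:**
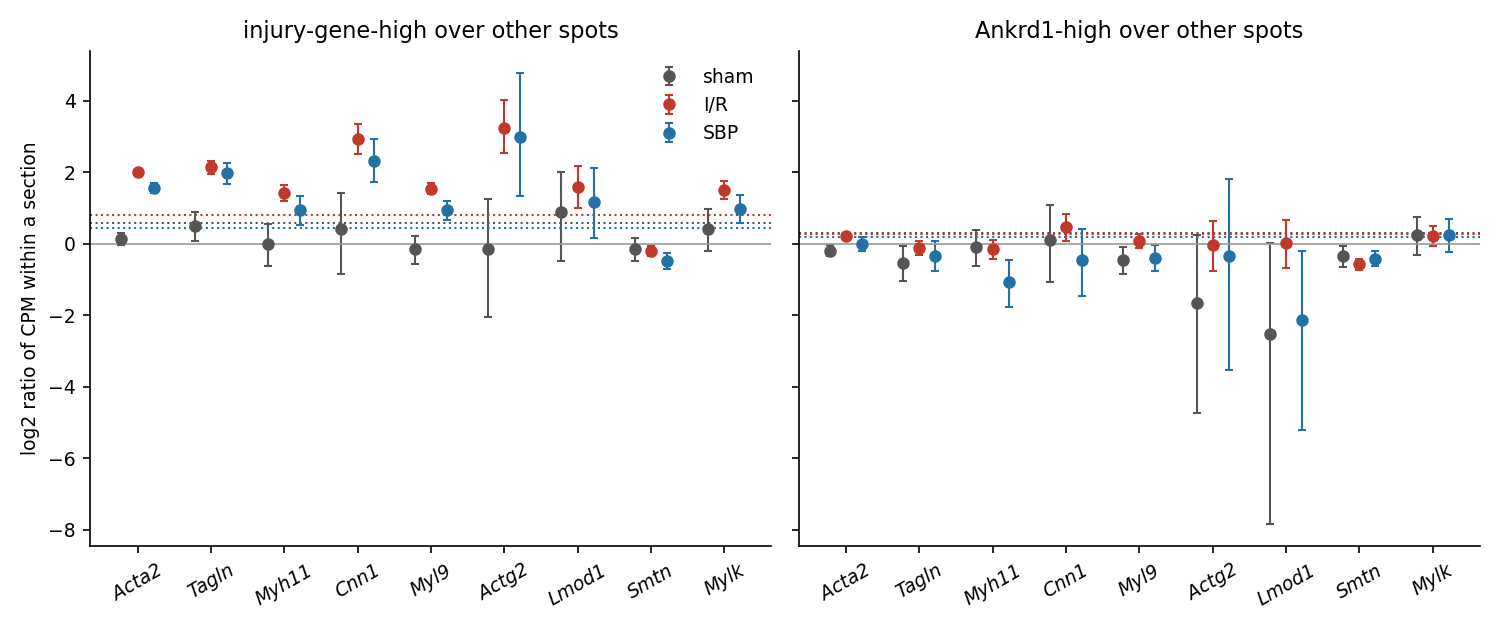
Log2 ratio of CPM in injury-gene-high over other spots (left) and Ankrd1-high over other spots (right) for each member and section, with 95% counting intervals. Dotted lines give the median of all genes in each section. In I/R the left panel reaches 3.25 for Actg2 and 2.93 for Cnn1, while the sham points other than Lmod1 and the Ankrd1-high points lie near or below the dotted lines.

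Across spots the members varied together, Smtn excepted. Over the 36 pairs of members the median Pearson correlation of log2 UMIs per 10000, with 1 added, was 0.36 over the 2234 spots of sham, 0.40 over the 2082 of I/R and 0.31 over the 1960 of SBP, as a description of spots that share a library and differ in depth. Tagln and Myl9 in sham had the highest value at 0.59. Acta2 and Tagln were correlated at 0.41, 0.56 and 0.52 in sham, I/R and SBP, and pairs with Smtn lay between 0.04 and 0.16. The top spots of Acta2 were shared to different degrees. Of its 22, 21 and 20 top spots in sham, I/R and SBP, 16, 16 and 18 were also top spots of Tagln, 17, 15 and 16 of Myl9, 16, 17 and 12 of Myh11, and 12, 12 and 13 of Cnn1. Fewer were shared with Lmod1 (9, 8 and 8), Actg2 (8, 11 and 5) and Smtn (4, 7 and 3), and for Mylk the numbers were 16, 11 and 8. In SBP only 0.561% of spots held an Actg2 UMI, so some of its 20 top spots held none. The SBP number for Actg2 was therefore limited by its few UMIs.

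Outside the 9 genes, those most correlated with the summed members over the 3 sections, among 6195 genes with at least 200 UMIs in each section, were Tpm2, Mustn1, Flna, Myl6, Crip1, Col18a1, Csrp1, Bgn, Eln and Sncg. Tpm2, a tropomyosin that lines the actin filament, led with correlations of 0.42, 0.52 and 0.36 in sham, I/R and SBP, and measured 51.4, 58.1 and 38.4 CPM. Only Eln, the elastin of artery walls, had the Acta2 order, which 8.31% of all genes had. It measured 31.3, 30.1 and 18.4 CPM, and its first step was within counting error. Flna and Myl6 were among those with I/R as the highest section and sham as the lowest.

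Genes around the contractile filament were read from lists. Of 19 filament partners and regulators of light-chain phosphorylation, 6 were at least 1.5-fold higher in I/R than in sham and 1 was lower, against 23.2% and 3.49% of all genes. In SBP 3 were at least 1.5-fold lower than in I/R, against 13.8%, so the counts of the list lay near those of all genes. Caldesmon (Cald1), which binds actin and tropomyosin, measured 35.3, 55.8 and 36.9 CPM, and the non-muscle tropomyosin Tpm4 61.7, 109 and 67.0 CPM in sham, I/R and SBP. Ppp1r12b, a myosin phosphatase subunit, was the lower one at 76.0, 47.5 and 60.5 CPM. The median log2 ratio of the list was 0.37 between I/R and sham, where all genes had 0.24, and -0.31 between SBP and I/R, where they had -0.17.

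Serum response factor (Srf) measured 10.2, 15.9 and 7.77 CPM in sham, I/R and SBP, and its log2 ratio between SBP and I/R was -1.04 (-1.30 to -0.78). Its cofactor Mrtfa took the same shape at 4.82, 9.99 and 5.09 CPM. Myocardin (Myocd), the cofactor most specific to smooth and cardiac muscle, did not, with 3.34, 4.13 and 4.72 CPM. None of the 5 genes of this list had the Acta2 order except Klf4, a repressor of contractile genes, at 20.3, 17.7 and 15.8 CPM, whose second step was within counting error. Of all genes 8.31% had that order.

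Among the other actins, the cytoplasmic Actb and Actg1 were highest in I/R, at 2422 and 813 CPM against 1185 and 389 CPM in sham and 1584 and 448 CPM in SBP. The cardiac actin Actc1 measured 6678, 5212 and 4872 CPM and skeletal Acta1 396, 415 and 303 CPM. The coding sequences of these actins are close to that of Acta2 while their 3′ ends differ, and how reads common to several actins were assigned is not given in the sources used here. Actc1 shared the Acta2 order with far smaller steps, at log2 ratios of -0.36 and -0.10.

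Of 12 vascular smooth muscle genes outside the filaments 11 had enough UMIs, and none was at least 1.5-fold lower in I/R than in sham, 1 was in SBP than in I/R (Kcnmb1) and 2 were in SBP than in sham (Itga8 and Olfr558), against 3.49%, 13.8% and 2.77% of all genes. The Acta2 order was found in 4 of the 12 (Itga8, Nrip2, Olfr558 and, on 15, 9 and 5 UMIs, Map3k7cl), against 8.31% of all genes. Each of these 4 had its first step within counting error. Map3k7cl also had fewer than the 50 UMIs that the share of all genes required. Olfr558, an olfactory receptor gene, measured 5.02, 3.87 and 3.24 CPM in sham, I/R and SBP. Kcnmb1, a subunit of the large-conductance potassium channel, measured 2.15, 2.35 and 1.53 CPM, and Pcp4l1 measured 106, 77.0 and 115 CPM in sham, I/R and SBP. Of 6 artery wall matrix genes, Eln and Fbn1 were at least 1.5-fold lower in SBP than in I/R, against 13.8% of all genes. Mfap4 (2.03-fold) and Eln (1.70-fold) were in SBP than in sham, against 2.77%. Eln, Fbln5 and Mfap4 had the Acta2 order, against 8.31% of all genes. For Fbln5 the levels of I/R and SBP overlapped, at 13.5 CPM (12.2 to 14.8) and 13.2 CPM (11.7 to 14.8). In log2 ratio between SBP and sham 5 of the 6 genes were below 0, where the median of all genes was 0.08. The share of all genes below 0 is not given here, so that count has no like background. Mfap4, a microfibril-associated protein, measured 10.7, 7.54 and 5.27 CPM in sham, I/R and SBP. The summed list gave 729, 691 and 824 CPM, most of it from Mgp, the matrix Gla protein, which measured 464, 430 and 609 CPM.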

How the data were processed

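Levels came from 3 Visium libraries of mouse heart, 1 per condition. The authors deposited, per the labels, gene-by-spot tables of whole-number UMI counts made with Space Ranger 1.3.0 on mm10, with no further normalization; feature and barcode lists accompany each deposited table. How multi-mapping reads were treated is not given in the sources used here. Gene positions came from GENCODE vM21 (GRCm38) by gene ID, for all 9 members, and promoters from RefSeq on GRCm38.p6. Genes overlapping Tagln, Lmod1, Smtn and Mylk in that annotation lie on the other strand.

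Spots with at least 200 genes were kept (6 left out in all). UMIs were summed per section and divided by the section total (CPM). Intervals at 95% were exact Poisson for levels, exact conditional binomial for ratios and Clopper-Pearson for shares. They cover counting error only, and those for top-spot shares do not allow for the choice of spots by the same UMIs. With 1 section per condition no test was run: a gene was counted as lower or higher at 1.5-fold, and all genes with at least 50 UMIs gave the background. Replicate error is unknown. Depth ranged from 21631280 to 30238530 UMIs per section. Scripts were tested on simulated data. Python 3.11.15, scipy 1.17.1, R 4.3.3 and edgeR 4.0.16 (TMM factors only) were used. The members, gene lists and named-gene rule (the 9 members, examples from the lists, and the 10 genes most correlated with the summed members) were chosen with earlier results of these data known. Tried alternatives were other totals and scaling factors, spot filters, spot weights, omission of rich spots, a 2-fold line and other ways to rank or thin spots. No doublet caller applies to spots, and spot positions and images were not used.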

Additional observations from a re-analysis of the deposited data

How the results depend on the processing

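No paired analysis was possible because there was a single section of every kind. The number of members in the Acta2 order of sections, with Acta2 itself counted, was 4, and 7 with TMM factors and with median-of-ratios factors. Members at least 1.5-fold lower in I/R than in sham numbered 1, and 0 with equal weight of spots, 2 (Acta2 and Actg2) without the 1% or the 5% of spots richest in the other 8 members, and 0 at 2-fold. At 2-fold, 3 members were lower in SBP than in I/R and 2 in SBP than in sham, against 6 and 5 at 1.5-fold. No share of all genes at the 2-fold line, with equal weight of spots or without rich spots is given here, so those counts cannot be set against the background. The median share of UMIs held by top spots went from 41.4%, 40.6% and 43.7% in sham, I/R and SBP to 72.4%, 66.8% and 75.2% for the top 5% of spots, and to 34.9% in sham and 35.7% in SBP when spots were ranked by the other 8 members. The number of members with a larger share in I/R than in sham was 5, and 2 (Acta2 and Smtn) for the top 5%. How many of all genes had a larger share in I/R was not computed, so these counts have no background. Of 216 log2 ratios of members between sections under the alternatives, 177 stayed inside their counting interval, and no called ratio changed sign. Setting the region by Ankrd1 rather than by injury genes turned 12 of 27 log2 ratios of region over other spots from above 0 to below 0: in I/R Tagln (-0.11), Myh11 (-0.16) and Actg2 (-0.041), in SBP Tagln (-0.33), Myh11 (-1.07), Cnn1 (-0.46), Myl9 (-0.39), Actg2 (-0.34) and Lmod1 (-2.13), and in sham Acta2 (-0.20), Tagln (-0.54) and Lmod1 (-2.51). Of these Ankrd1 values, only Myh11, Myl9 and Lmod1 in SBP and Acta2 and Tagln in sham had counting intervals without 0. In the Ankrd1-high spots Lmod1 of sham rested on 1 UMI, and Lmod1 and Actg2 of SBP on 2 each. With at least 200 UMIs rather than 50, 1.22% of all genes were at least 1.5-fold lower in SBP than in sham, against 2.77%. Depth limits Actg2, Lmod1 and Cnn1 most, and how many vessels each section cut was not tested.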
